A study of Mus musculus with 32 samples.

Results

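The endoplasmic reticulum (ER) chaperones described here are 10 genes, Pdia6, Hyou1, Manf, Hspa5, Hsp90b1, Pdia4, Sdf2l1, Dnajb9, Creld2 and Calr, out of 27728 genes in the deposited count table. They were chosen by gene symbol, and all 10 had a row and passed the filter on low counts in every comparison. The choice used measured values: Pdia6, Hyou1 and Manf had been seen to be lower at higher adult doses, so every contrast between adult doses is given as a description without a test. Proteins destined for membranes, granules or secretion are folded in the ER. Hspa5 (BiP), the Hsp70 of the ER, binds unfolded chains and also holds the stress sensors IRE1, PERK and ATF6 inactive. When unfolded protein accumulates, these sensors raise the transcription of chaperone genes, a programme called the unfolded protein response.

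The libraries came from Lin- cKit+ Sca1- hematopoietic progenitors, sorted from fetal liver at E14.5 of embryonic development or from adult bone marrow of mice with altered U2af1, a gene for a splicing factor that recognises the 3' splice site. The 32 libraries fall into 9 groups. The fetal groups, all untreated, were a flox control, U2af1(flox/flox) without Cre (3 libraries), a heterozygous deletion, Vav1-Cre/U2af1(wt/flox) (3 libraries), a homozygous deletion, Vav1-Cre/U2af1(flox/flox) (3 libraries), Vav1-Cre alone (2 libraries), and S34F, Vav1-Cre/U2af1(wt/S34F) (4 libraries). Vav1-Cre acts in blood cells, and the flox control carried no Cre, so Cre and deletion differ together in comparisons with it. The 9 libraries of the flox control and of both deletions, and 1 Vav1-Cre library, belonged to batch A, while the S34F libraries and the other Vav1-Cre library belonged to batch B. All 14 dosed adult libraries carried Mx1-Cre, rTA and the transgene tgU2AF1(WT) with the alleles U2af1(flox/S34F), and had received pIpC, an inducer of Mx1-Cre, with doxycycline chow, the inducer of the wild-type transgene, at 1250 ppm (4 libraries), 2500 ppm (6 libraries) or 10000 ppm (4 libraries). Untreated adults carried the same Cre, rTA and transgene with the alleles U2af1(wt/wt) (3 libraries), so the floxed and S34F alleles, pIpC and doxycycline all differ together between dosed and untreated adults. No group with doxycycline or pIpC alone was analysed here.

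Library totals ran from 26588099 to 71251200 counts. All 46 pairs of replicates differed by more than counting error. The labels do not say that replicates came from separate animals, so p-values measure the spread between these samples. Of the markers of the sorted cells, Kit, Cd34 and Ptprc were detected in every library, and Ly6a was not analysed here. U2af1 was not analysed here either, so its counts were not used to check the genotype labels. Levels below are counts per 1000000 after TMM scaling over the 32 libraries (CPM).

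Hspa5 and 4 more members belong to the BiP cycle. Hspa5 lies at chr2:34771970-34777547 on GRCm38. Hyou1 (chr9:44379490-44392369), an Hsp110-related protein, exchanges nucleotide on BiP. Manf (chr9:106838312-106891979) is a small ER-resident protein that binds BiP. Dnajb9 (chr12:44205559-44210326) is the J-domain co-chaperone ERdj4, which brings BiP to IRE1. Sdf2l1 (chr16:17130138-17132383) forms a complex with another J-domain co-chaperone of BiP. Hsp90b1 (chr10:86690209-86705509), or GRP94, is the ER Hsp90 and folds integrins and Toll-like receptors. Calr (chr8:84841850-84846934), calreticulin, binds calcium and glycoproteins with immature glycans. Pdia4 (chr6:47796141-47813430) and Pdia6 (chr12:17266545-17284770) form and rearrange disulfide bonds, and Creld2 (chr15:88819646-88826683) is an ER-stress-inducible protein with disulfide isomerase activity. Gene models of GENCODE M21 on the same build overlap Pdia6, Manf, Hsp90b1, Pdia4 and Dnajb9, and the use of strand in counting is not given in the sources used here, so counts of these 5 may include reads of their neighbours.

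The promoters of 5 members are shown because they share the ER stress response element (ERSE), the motif through which ATF6 and XBP1 are known to act. RefSeq promoter windows on GRCm38.p6, from 250 bases before to 50 bases after the start of the gene, were matched for 8 of the 10 members, all but Hyou1 and Manf. The consensus letters of the ERSE, searched as an exact match on both strands, were found in 5 of these 8, against 0.119% of all 32851 windows. Motif and genes were both picked as known parts of the unfolded protein response, so these shares are a description and not a test. Capitals mark the 5-letter blocks at either end of the motif, in either orientation, and each sequence is written 5′ to 3′ on the strand of its gene. They lie at chr12:17266471-17266529 (plus strand) for Pdia6, chr2:34772020-34772048 (plus) for Hspa5, chr10:86705513-86705676 (minus) for Hsp90b1, chr15:88819500-88819558 (plus) for Creld2 and chr8:84847055-84847113 (minus) for Calr.
Pdia6: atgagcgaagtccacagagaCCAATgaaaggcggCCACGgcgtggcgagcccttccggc
Hspa5: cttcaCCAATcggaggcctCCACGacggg
Hsp90b1: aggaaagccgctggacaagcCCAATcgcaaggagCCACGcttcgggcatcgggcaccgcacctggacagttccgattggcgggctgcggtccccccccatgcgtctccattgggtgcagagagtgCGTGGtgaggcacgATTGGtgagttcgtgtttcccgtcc
Creld2: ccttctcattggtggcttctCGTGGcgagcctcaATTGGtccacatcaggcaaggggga
Calr: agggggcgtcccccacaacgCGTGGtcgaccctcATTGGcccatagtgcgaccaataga
Distances are counted from the RefSeq start of each gene. For Pdia6, Hspa5, Hsp90b1 and Calr that start lies inside the GENCODE gene model given above, and for Creld2 at the start of its model. Of the printed stretches, only that of Hspa5 lies within its model. The match of Hspa5 lay at 65 to 47 bases upstream of its RefSeq start, and that of Pdia6 at 98 to 80 bases. Hsp90b1 held 2 matches in opposite orientation, at 212 to 194 and at 107 to 89 bases upstream. Creld2 and Calr held the motif in reverse, at 126 to 108 and at 162 to 144 bases upstream. The windows of Pdia4, Sdf2l1 and Dnajb9 did not hold these letters, and none of the 8 windows held the UPR element (TGACGTGG on either strand, 0.676% of all windows). Among the genes of the related lists described below, Canx, Dnajc3, Ero1b, Syvn1 and Derl3 held the ERSE, the first 3 being folding factors and the last 2 factors of ER-associated degradation.

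Per kilobase of the principal transcript, Calr was the most abundant member in every group, with a mean level of 1603 CPM per kb in the flox control and 2487 CPM per kb in the homozygous deletion. Dnajb9 was the least abundant, with group means from 8.25 to 19.1 CPM per kb. Together the 10 genes took from 0.641% to 1.25% of all counts of a library. Their share was 1.14% to 1.17% in the homozygous deletion, 0.756% to 0.944% in the flox control, 1.01% to 1.25% at 1250 ppm and 0.641% to 0.876% at 10000 ppm.

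Ordered by mean CPM over the 9 groups, the homozygous deletion and the 1250 ppm group held the first and second place for 8 of the members, in either order. Hsp90b1 was highest in the homozygous deletion and next in the untreated adults, and Dnajb9 was highest in the untreated adults. Most neighbours in these orders had overlapping libraries. The exceptions at the top of the order were Hyou1, for which 1250 ppm lay above the homozygous deletion without overlap, and Manf, Hsp90b1 and Calr, for which the homozygous deletion lay above the next group. The S34F group held the lowest mean for Hyou1, Manf, Hspa5, Pdia4, Sdf2l1, Dnajb9 and Calr. All its libraries were of batch B, so this place cannot be told apart from batch. The Vav1-Cre library of batch B lay below the S34F mean for Hyou1 (519 against 561 CPM) and Sdf2l1 (127 against 134 CPM). For Manf, Hspa5, Pdia4, Dnajb9 and Calr it lay above that mean. The 10000 ppm group held the lowest mean for the other 3, Pdia6, Hsp90b1 and Creld2. The plot of CPM by library shows the members across all groups.

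**Figure D1:**
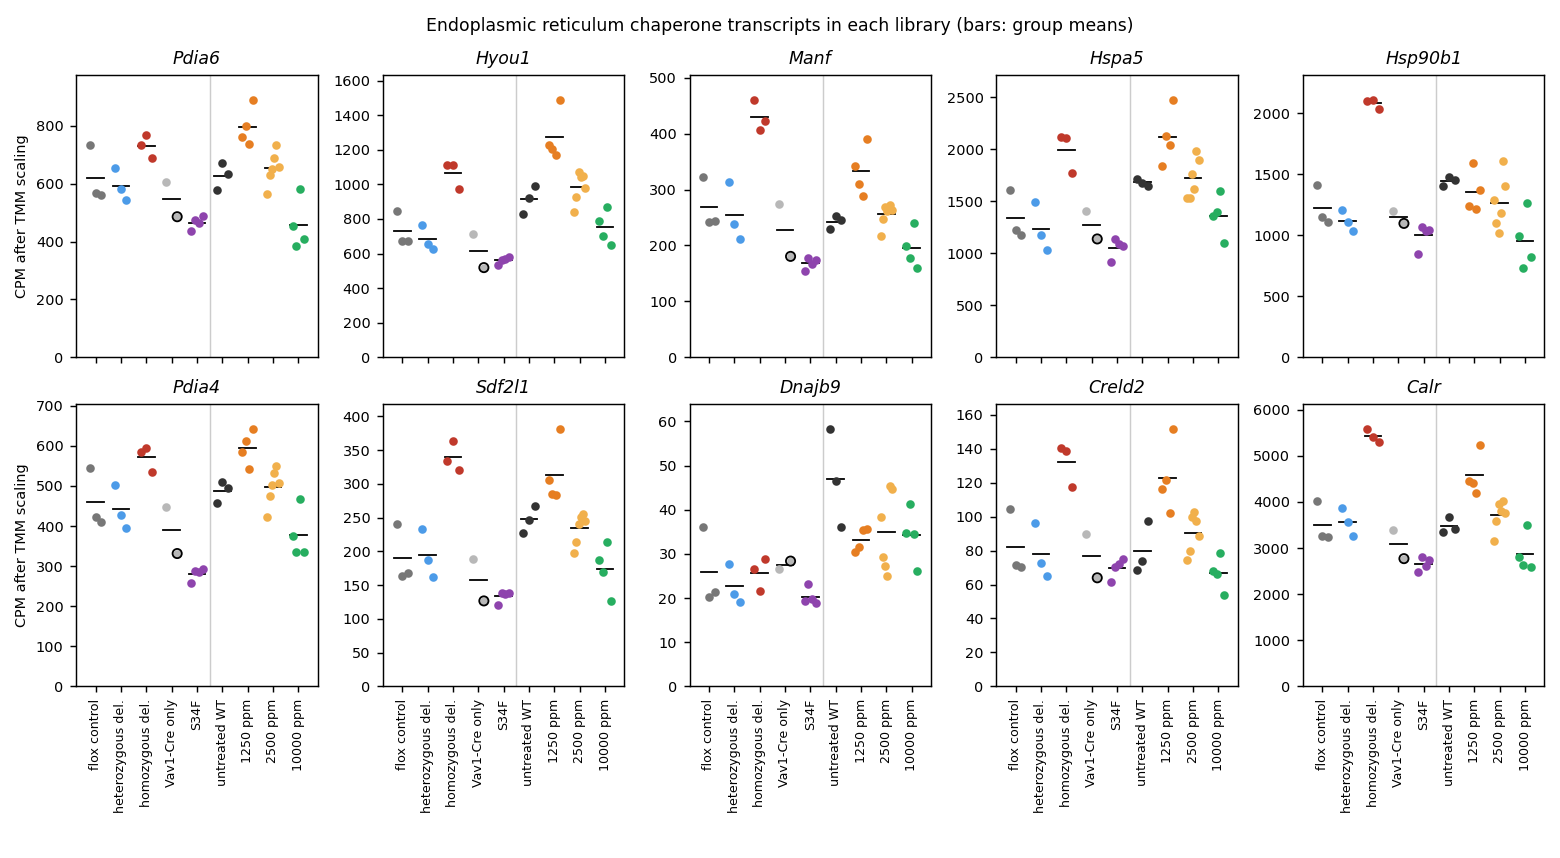
Levels of the 10 members in CPM after TMM scaling (vertical axes from 0) in each of the 32 libraries, by group; points are libraries, bars are group means, and the ringed Vav1-Cre point is the library of batch B. The homozygous deletion and 1250 ppm groups stand highest for most members, while Dnajb9, with group means of 20.3 to 46.9 CPM, has another order.

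The comparison of the homozygous deletion with the flox control asked how chaperone transcripts differ in progenitors whose 2 U2af1 copies are targeted for deletion. Of the 10 members, 8 rose and none fell (edgeR's quasi-likelihood test, Benjamini-Hochberg adjusted p under 0.05). Of all 12678 genes tested, 41% were called, 18.5% as higher and 22.4% as lower. The median log2 fold change of the members was 0.59, against -0.02 over all genes tested. Sdf2l1, Hsp90b1, Creld2, Manf and Calr showed differences of 1.54-fold to 1.76-fold, while Pdia6 and Dnajb9 did not pass the test. In bulk RNA, more cells of a type with high levels and more RNA per cell cannot be told apart.

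Hsp90b1 had 2103, 2106 and 2036 CPM in the homozygous deletion and 1411, 1153 and 1111 CPM in the flox control. All 3 deletion libraries lay far above all 3 controls, and the log2 fold change was 0.75 ± 0.086 (SE; edgeR's quasi-likelihood test, Benjamini-Hochberg adjusted p = 0.000115). Calr, the glycoprotein chaperone, had 5576, 5414 and 5305 CPM in the deletion and 4017, 3256 and 3231 CPM in the control. These groups did not overlap either, and the log2 fold change was 0.62 ± 0.089 (edgeR adjusted p = 4e-04).

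In the BiP cycle, Hspa5 had 2112, 2105 and 1769 CPM in the homozygous deletion and 1611, 1219 and 1171 CPM in the flox control, a log2 fold change of 0.56 ± 0.14 (edgeR adjusted p = 0.00805). Its lowest deletion library lay above its highest control library. Hyou1, the exchange factor, had 1114, 1113 and 973 CPM against 845, 675 and 673 CPM, a log2 fold change of 0.53 ± 0.094 (edgeR adjusted p = 0.0014). Manf had 459.6, 406 and 423 CPM against 322, 242 and 245 CPM, a log2 fold change of 0.66 ± 0.14 (edgeR adjusted p = 0.00356). For both genes the groups did not overlap. Sdf2l1 had 334, 363 and 320.4 CPM against 241, 164 and 168 CPM. Its log2 fold change, 0.81 ± 0.15 (edgeR adjusted p = 0.00158), was the largest of the 10. Dnajb9, the co-chaperone that brings BiP to IRE1, had 26.5, 21.7 and 28.8 CPM against 36.1, 20.1 and 21.4 CPM, with a log2 fold change of -0.03 ± 0.22 (edgeR adjusted p = 0.94). Its groups overlapped fully, and its SE was the largest of the 10.

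Of the disulfide isomerases, Pdia4 had 586, 595 and 535 CPM in the homozygous deletion and 544, 423 and 411 CPM in the flox control, so that 1 control library lay above the lowest deletion library. Its log2 fold change was 0.30 ± 0.11 (edgeR adjusted p = 0.0416). Pdia6 had 733, 767 and 690.1 CPM against 734, 566 and 562 CPM, and its log2 fold change of 0.22 ± 0.098 did not pass (edgeR adjusted p = 0.0977). Creld2 had 140.1, 139 and 117 CPM against 105, 71.7 and 70.3 CPM, a log2 fold change of 0.67 ± 0.16 (edgeR adjusted p = 0.00743), and its groups did not overlap. For all 10 members, flox control replicate 3 was the highest of the 3 control libraries. Without that library 9 members were called, Pdia6 among them (log2 fold change 0.36, edgeR adjusted p = 0.00167). Pdia4 was not called when flox control replicate 4 or 5, or any 1 of the deletion libraries, was left out (log2 fold changes 0.22 to 0.32, edgeR adjusted p from 0.0711 to 0.157).

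Against the heterozygous deletion, which carries the same Cre, 9 members rose in the homozygous deletion and none fell, all but Dnajb9 (edgeR adjusted p under 0.05; 42.3% of all genes called, 19.8% as higher and 22.4% as lower). The median log2 fold change was 0.65, against -0.05 over all genes tested. Hsp90b1 showed the largest difference, 0.87, and Pdia6 the smallest of those called, 0.28. This comparison and the one with the flox control share the homozygous libraries. Pdia6 lost its call when either of heterozygous replicates 4 and 5 or any 1 of the homozygous libraries was left out (edgeR adjusted p from 0.0691 to 0.153), and Pdia4 lost its call without heterozygous replicate 4 or 5 or homozygous replicate 3 (edgeR adjusted p from 0.0608 to 0.0932).

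The heterozygous deletion itself was compared with the flox control in the same fit. No member was called in this comparison, in which 0.0316% of all genes were. By edgeR's quasi-likelihood test 0 members reached an unadjusted p under 0.05, and DESeq2 called 0. The log2 fold changes ran from -0.19 ± 0.22 for Dnajb9 to 0.03 ± 0.089 for Calr, with a median of -0.07. Hsp90b1 had 1208, 1110 and 1037 CPM in the heterozygous deletion, within or just below the range of the control. Hspa5 had 1489, 1174 and 1027 CPM, also overlapping the control. The plot of fold changes sets the fetal and adult contrasts side by side.

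**Figure D2:**
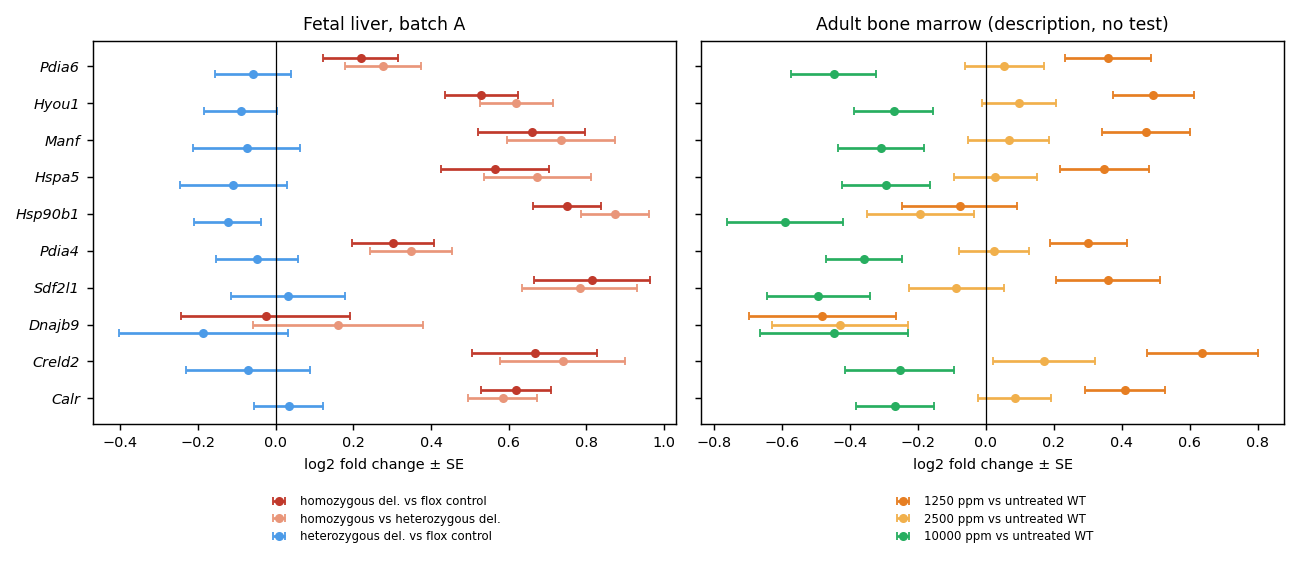
Log2 fold changes with their SE (horizontal axes) for the 10 members, left for 3 fetal contrasts in batch A and right for each adult dose against untreated adults, which is a description. On the left the homozygous deletion stands at positive values for 9 members against the flox control, and on the right 1250 ppm and 10000 ppm stand on opposite sides of 0 for 8 members.

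Markers of other cell types moved with these groups. Of 12 hepatocyte markers 10 were in the table, and their summed level was 102 to 635 CPM in the flox control, 49.95 to 122 CPM in the heterozygous deletion and 11.3 to 31.0 CPM in the homozygous deletion. All 10 were called lower in the homozygous deletion than in the flox control. With the mean hepatocyte level of each library as a covariate, 0 of the 10 chaperones were called (10.3% of all genes were), with a median log2 fold change of 0.49. Hsp90b1 then had a log2 fold change of 0.55 ± 0.17 (edgeR adjusted p = 0.065), Calr 0.44 ± 0.18 (edgeR adjusted p = 0.143) and Pdia6 0.00 ± 0.19 (0.003 before rounding). The SE of each member was larger in that fit, for Hyou1 0.198 against 0.0945. The covariate, a mean log2 CPM, was -1.17 to 0.91 in the homozygous deletion and 2.61 to 5.19 in the flox control. In the heterozygous deletion it was 1.41 to 2.90. It thus did not overlap between the homozygous deletion and either group. Deletion and hepatocyte level cannot be told apart in these libraries, so a lost call does not show which of them goes with the chaperones. Without the pair of flox control libraries with the highest hepatocyte level, replicates 4 and 5, which leaves 1 control library assumed to vary like the other groups, 3 chaperones were called (Calr, Hsp90b1 and Sdf2l1; 19.6% of all genes), with a median of 0.33. Against the heterozygous deletion, 7 of the 10 remained called with the covariate, all but Pdia6, Pdia4 and Dnajb9 (32.1% of all genes).

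Blood cell markers moved as well. The summed level of 4 secondary granule genes was 773 to 1467 CPM in the homozygous deletion and 160 to 373 CPM in the flox control (159.5 before rounding for the lowest), and all 4 were called higher. Of 4 primary granule genes, 3 were called higher and none lower (median log2 fold change 0.82). Their means in the flox control and the homozygous deletion were 1039 and 1711 CPM for Elane, 707 and 1359 CPM for Ctsg and 199.8 and 487 CPM for Ms4a3. The sum of the 4, most of it Mpo, was 15690 to 17790 CPM in the deletion and 14790 to 21740 CPM in the control. Of 3 mast and basophil markers 2 were called higher (sum 107 to 187 CPM against 76.9 to 121 CPM), and all 4 megakaryocyte markers were called lower (46.3 to 67.1 CPM against 91.7 to 145 CPM). Macrophage markers had 39.4 to 62.0 CPM against 103 to 110.3 CPM, and B cell markers had 23.6 to 26.4 CPM against 61.5 to 131 CPM. Kit had a mean of 283 CPM in the homozygous deletion and 539 CPM in the flox control. The part of these blood cell shifts in the chaperone result was not tested.

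Other genes of the pathway were taken from lists, described by counts and medians beside the 18.5% of all genes called higher. Of the sensors and transcription factors of the unfolded protein response, 3 of 11 rose in the homozygous deletion relative to flox controls and none fell. These were Xbp1, the factor activated by IRE1 through splicing (157 ± 28.2 CPM in the control and 247 ± 19.4 CPM in the deletion, SD, n = 3 each; log2 fold change 0.64 ± 0.11), Atf4 (log2 fold change 0.42), the translationally controlled factor downstream of PERK, and Eif2ak3 (0.28), which encodes PERK. Ern1, which encodes IRE1, had a log2 fold change of -0.03 and was not called. The median of the list, 0.03, lay near that of all genes.

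Of 30 other ER folding factors, 19 rose and 1 fell, with a median log2 fold change of 0.31. The largest rise was that of Ero1a, the oxidase that recharges protein disulfide isomerase, from 169 ± 29.8 to 413 ± 44.9 CPM (SD, n = 3 each; log2 fold change 1.28 ± 0.12), followed by the prolyl isomerase Fkbp7 (0.73) and Hspa13 (0.63), an Hsp70-like protein. Prdx4, a peroxidase of the ER, fell by 0.38 on the log2 scale. Of 16 factors of ER-associated degradation, which returns misfolded proteins to the cytosol, 10 rose and 1 fell, with a median of 0.29. Edem1, a mannosidase-like protein, had a log2 fold change of 0.64 and Sel1l, a subunit of the export ligase, 0.44, while the lectin Erlec1 fell by 0.31 on the log2 scale.

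Of 19 genes of translocation into the ER and of N-glycosylation, 15 rose and none fell, with a median log2 fold change of 0.33. The largest were the signal peptidase subunits Sec11c (0.63) and Spcs2 (0.58) and the translocon-associated Ssr2 (0.49). Of 14 genes of KDEL retrieval and early secretory transport, 7 rose and none fell, with a median of 0.21, led by the coat subunit Sec24d (1.002), the cargo receptor Surf4 (0.64) and Tmed2 (0.44). Of 11 genes of the PERK-ATF4 arm, 7 rose and none fell, with a median of 0.63. Slc7a11, the cystine transporter, had a log2 fold change of 1.98 (5.54 CPM in the control), Chac1, which degrades glutathione, from 1.49 to 4.90 CPM (1.70), and the pseudokinase Trib3 from 1.14 to 2.84 CPM (1.30). Of 14 cytosolic and mitochondrial chaperones, 4 rose and 1 fell, with a median of 0.23. Hspd1 (0.45), Hsp90aa1 (0.43) and the chaperonin subunit Cct2 (0.31) showed the largest rises, and Trap1, the mitochondrial Hsp90, fell by 0.26 on the log2 scale.

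**Figure D3:**
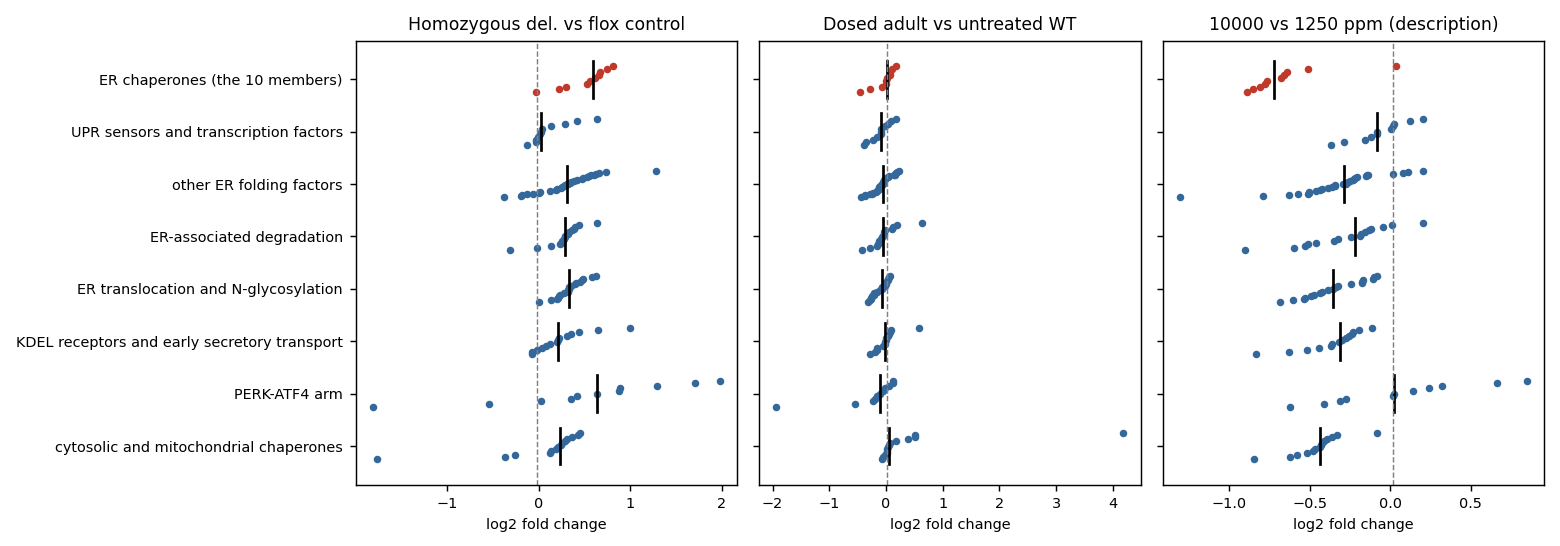
Log2 fold changes (horizontal axes) of each tested gene of the 8 lists, the 10 members in red, in 3 contrasts; short bars are list medians and the dashed line is the median of all genes tested. The members' medians are 0.59 in the homozygous deletion, 0.01 in dosed against untreated adults and -0.72 at 10000 against 1250 ppm.

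With the hepatocyte covariate, 10.3% of all genes were called against the flox control, higher and lower together. As for the members, this fit cannot tell deletion and hepatocyte level apart. Of the lists, 0 of 11 sensors, 1 of 30 other folding factors, 1 of 16 degradation factors and 2 of 19 translocation genes were called higher. So were 1 of 14 transport genes, 4 of 11 PERK-ATF4 genes and 6 of 14 cytosolic and mitochondrial chaperones. None of these lists had a gene called lower. The median log2 fold changes in that fit were -0.03 for the sensors, 0.20 for the other folding factors, 0.29 for degradation and 0.28 for translocation. They were 0.18 for transport, 0.98 for the PERK-ATF4 arm and 0.54 for the cytosolic and mitochondrial chaperones. Against the heterozygous deletion with the same covariate, 32.1% of all genes were called, higher and lower together. Called higher were 15 of 30 other folding factors, 8 of 16 degradation factors (1 was called lower), 15 of 19 translocation genes and 9 of 14 transport genes. So were 8 of 11 PERK-ATF4 genes and 10 of 14 cytosolic and mitochondrial chaperones. Of 11 sensors, 2 were called higher and 2 lower, with a median log2 fold change of 0.07. Outside the members, 32 genes had a promoter window with the ERSE, and 11 of them were tested in the fetal fit. Without the covariate, 5 of these 11 rose in the homozygous deletion relative to flox controls and 2 fell, with a median log2 fold change of 0.24. Of all genes, 18.5% were called higher and 22.4% lower there. Against the heterozygous deletion 4 rose and 2 fell (19.8% and 22.4% of all genes). The median was then 0.08, against -0.05 over all genes tested.

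In batch B, the 4 S34F libraries could be set beside a single Vav1-Cre library, so no test was made. Hyou1 had 533 to 580.3 CPM in the S34F libraries, all above the 519 CPM of the control library. Another 5 members were lower in all 4 S34F libraries, Manf (154 to 177 CPM against 181 CPM), Hspa5 (916 to 1137 CPM, the highest rounding to the same value as the control library), Hsp90b1 (848 to 1065 CPM against 1097 CPM), Pdia4 (259 to 294 CPM against 331 CPM) and Dnajb9 (18.9 to 23.1 CPM against 28.4 CPM). Of all genes with a mean of at least 10 counts, 31.8% lay below and 26.5% above in the same way. The ratios of the S34F mean to the control ran from 0.715 for Dnajb9 to 1.09 for Creld2. The Vav1-Cre library of batch A stood at 0.938 (Dnajb9) to 1.52 (Manf) times that of batch B, so these 2 libraries of 1 genotype also differed.

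Among the adult groups, 9 of the 10 members were lower at 10000 ppm than at 1250 ppm of doxycycline, the exception being Dnajb9. The log2 fold change of 10000 against 1250 ppm had a median of -0.72 over the members, against 0.02 over all genes tested. Most members stood above untreated adults at 1250 ppm, near them at 2500 ppm and below them at 10000 ppm. The members were chosen for this contrast, so these values describe the choice.

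Pdia6, a disulfide isomerase, had 761, 800.1, 737 and 888 CPM at 1250 ppm. At 2500 ppm it had a lowest value of 563, a median of 655 and a highest value of 733 CPM, and at 10000 ppm it had 455, 383, 583 and 408 CPM. Untreated adults had 577, 673 and 632 CPM. The 1250 ppm libraries lay above all other adult libraries, and those at 10000 ppm overlapped the 2500 ppm and untreated ranges through replicate 3 alone. The log2 slope per doubling of dose was -0.26.

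Hyou1 had 1228, 1206, 1171 and 1486 CPM at 1250 ppm. Its 2500 ppm libraries ran from 839.6 through a median of 1009 to 1070 CPM, and its 10000 ppm libraries were at 789.8, 704, 868 and 652 CPM. Untreated adults had 831, 920.2 and 992 CPM. Hyou1 at 1250 ppm thus lay above every other adult library, with a log2 fold change of 0.49 ± 0.12 against untreated adults and of -0.76 between 10000 and 1250 ppm.

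Manf had 342, 309.7, 288 and 391 CPM at 1250 ppm. It ran from 217 through 263 to 273 CPM at 2500 ppm, and had 199.5, 178, 240.3 and 161 CPM at 10000 ppm. Untreated adults, at 229, 253 and 246 CPM, lay within the 2500 ppm range. Between 10000 and 1250 ppm its log2 fold change was -0.78, and the slope per doubling was -0.24.

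Hspa5 had 1836, 2126, 2036 and 2469 CPM at 1250 ppm and 1353, 1394, 1598 and 1101 CPM at 10000 ppm, with 1533 to 1982 CPM at 2500 ppm (median 1690 CPM). Untreated adults were tightly grouped at 1714, 1678 and 1648 CPM, between the lowest and highest doses without overlap. Sdf2l1 had 305, 285, 283 and 381 CPM at 1250 ppm and 188, 169.9, 214 and 127 CPM at 10000 ppm, against 227, 247 and 268 CPM in untreated adults. These groups did not overlap either. Calr had 4456, 4407, 4193 and 5244 CPM at 1250 ppm and 2817, 2632, 3491 and 2579 CPM at 10000 ppm, against 3346, 3679 and 3422 CPM in untreated adults. Its 10000 ppm replicate 3 lay within the untreated range.

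Pdia4 and Creld2 had the same order of groups. Pdia4 had 585, 613, 542 and 641 CPM at 1250 ppm and 376, 336, 467 and 335 CPM at 10000 ppm, a log2 fold change of -0.66. Creld2 had 116, 122, 102 and 151 CPM at 1250 ppm and 67.7, 66.3, 78.7 and 53.6 CPM at 10000 ppm. Its log2 fold change of -0.89 was the lowest of the 10.

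Hsp90b1 and Dnajb9 differed from the rest. Hsp90b1 had 1239, 1593, 1215 and 1367 CPM at 1250 ppm, around the 1400, 1474 and 1452 CPM of untreated adults, and 993.6, 734, 1261 and 821 CPM at 10000 ppm. It was thus not above untreated adults at any dose group's mean, and its log2 fold change of 1250 ppm against untreated adults was -0.08 ± 0.17. Dnajb9 had 30.5, 31.5, 35.4 and 35.6 CPM at 1250 ppm, 34.9, 41.3, 34.4 and 26.2 CPM at 10000 ppm, and 58.2, 46.5 and 36.0 CPM in untreated adults. Its level at 1250 ppm was close to that at 10000 ppm, with a log2 fold change of 0.03.

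By overlap of libraries, 8 of the 10 members were lower in all 10000 ppm than in all 1250 ppm libraries, as were 13.4% of all genes. The other 2 were Hsp90b1 and Dnajb9. By the same measure 5 of 10 were lower in all 2500 ppm than in all 1250 ppm libraries, as were 4.43% of all genes, and 0 of 10 were separated between 10000 and 2500 ppm (0.96% of all genes were lower and 0.517% higher at 10000 ppm). Between 2500 ppm and untreated adults 0 of 10 were separated (3.75% of all genes lower, 5.48% higher). All 1250 ppm libraries lay above all untreated ones for 8 members (16.3% of all genes) and below them for Dnajb9 (18.4%). All 10000 ppm libraries lay below all untreated ones for 3 members, Hspa5, Hsp90b1 and Sdf2l1 (10.3%). The heat map shows these differences by library.

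**Figure D4:**
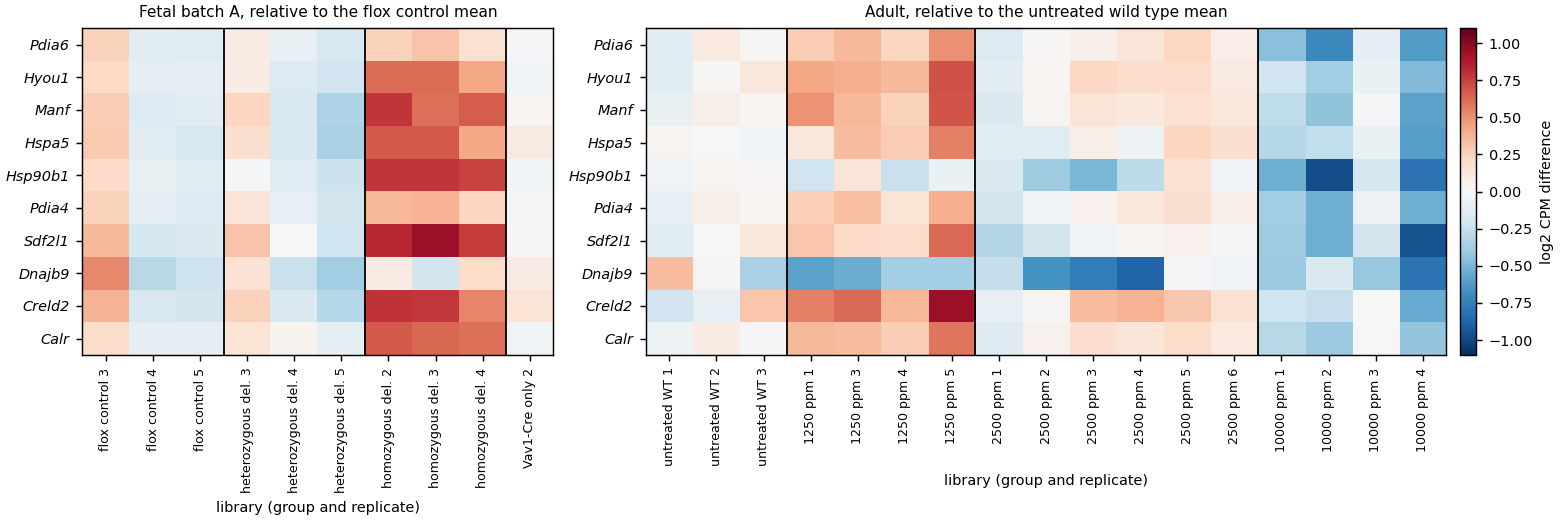
Log2 CPM of each member in each library minus the mean of its control group (colour scale, red higher and blue lower), with fetal batch A against the flox control on the left and adults against untreated wild type on the right. The homozygous deletion and 1250 ppm columns are mostly red, the 10000 ppm columns are mostly blue, and the row of Dnajb9 is blue at 1250 ppm as well as at 10000 ppm.

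A comparison that does not reuse the differences among doses is that of all dosed adults, weighted by library number, with untreated adults. No member was called (edgeR's quasi-likelihood test; 2.36% of all genes were), 1 had an unadjusted p under 0.05, and DESeq2 called 0. The median log2 fold change was 0.01, as over all genes. Dnajb9 had the lowest value, -0.45 ± 0.18 (edgeR unadjusted p = 0.0212, adjusted p = 0.153), followed by Hsp90b1 at -0.27 ± 0.14 (edgeR adjusted p = 0.256). The other 8 lay between -0.08 for Sdf2l1 and 0.18 for Creld2. This comparison pools doses at which most members lay on opposite sides of untreated adults. Taken by dose, the members' median log2 fold change against untreated adults was 0.36 at 1250 ppm, 0.04 at 2500 ppm and -0.33 at 10000 ppm. A pooled value near 0 therefore does not show that each dose group was like untreated adults. The related lists held 11 sensors, 30 other folding factors, 16 degradation factors and 19 translocation genes. They also held 14 transport genes, 11 PERK-ATF4 genes and 14 cytosolic and mitochondrial chaperones. Of all these, 1 gene was called, a smaller share than the 2.36% of all genes. It was Edem3, a mannosidase-like factor of ER-associated degradation, which fell by 0.28 on the log2 scale (edgeR adjusted p = 0.0341). Its level was 126.5 ± 5.36 CPM in untreated and 104 ± 8.45 CPM in dosed adults (SD, n = 3 and 14).

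The related lists, described in the same way between 10000 and 1250 ppm, were mostly lower at 10000 ppm. All 19 translocation genes had a negative log2 fold change (median -0.35), as did all 14 transport genes (median -0.31) and all 14 cytosolic and mitochondrial chaperones (median -0.43). Of 30 other folding factors 26 were negative (median -0.28), and of 16 degradation factors 14 (median -0.22). The sensors and the PERK-ATF4 arm had medians of -0.08 and 0.02. The members' median of -0.72 was larger in size, but the members were chosen for this contrast, so no ranking follows from it.

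Markers of other cells also differed among the adult libraries. The summed level of 4 secondary granule genes of late neutrophil precursors was 802 to 1241 CPM at 1250 ppm, 1293 to 11990 CPM at 2500 ppm and 1060 to 10320 CPM in untreated adults. At 10000 ppm it was 34300, 39570, 5553 and 762 CPM in replicates 1 to 4. The mean log2 CPM of the 10 members in these replicates was 8.52, 8.41, 8.76 and 8.23, the last being the lowest of all adult libraries. At 10000 ppm, replicate 4 also had the lowest summed level of 4 primary granule genes, 16910 CPM. The other adult libraries had 29200 to 44820 CPM of these genes. Without 10000 ppm replicates 1 and 2 the median log2 fold change of the members between 10000 and 1250 ppm was -0.65, against -0.72 with them. Plasma cell markers, of which 6 of 7 were in the table, summed to 48.2 and 86.2 CPM in those replicates and to 5.85 to 31.6 CPM in the other adult libraries. Megakaryocyte markers summed to 63.6 to 217 CPM at 10000 ppm and 30.6 to 61.2 CPM at 1250 ppm, without overlap, and erythroid markers to 51.6 to 472 CPM and 23.1 to 66.3 CPM. In dosed against untreated adults, all 5 B cell markers were called higher, as were 3 of 7 macrophage markers and 2 of 5 plasma cell markers, while 1 of 3 mast and basophil markers was called lower. The summed macrophage level was nevertheless lower in dosed adults, at 92.5 to 349 CPM against 353 to 456 CPM. The 10 hepatocyte markers summed to 14.2 to 42.5 CPM in adults, most of it Trf (group means of 20.3 to 33.9 CPM), and Alb, Ttr, Fga, Fgb and Fgg, 5 of the 10, were at 0 counts in every adult library. The part of these markers in the adult chaperone values was not tested.

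**Figure D5:**
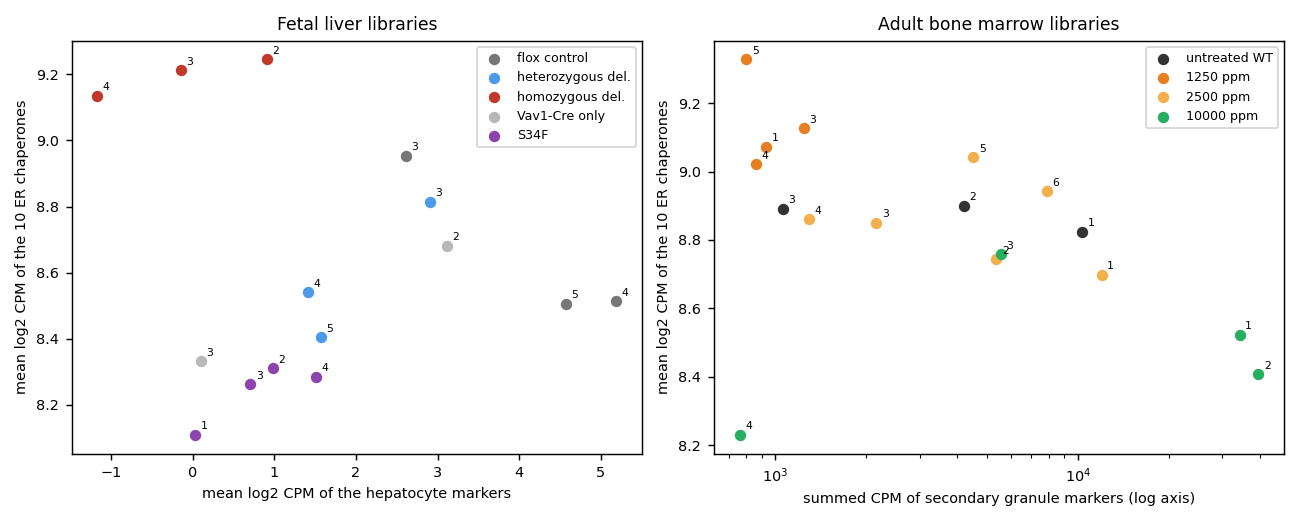
Mean log2 CPM of the 10 members in each library (vertical axes) against the mean log2 CPM of hepatocyte markers in fetal libraries (left) and the summed CPM of secondary granule markers in adult libraries (right, log axis); numbers are replicates. Within the flox control, replicate 3 has the lowest hepatocyte level (2.61) and the highest member level (8.95). At 10000 ppm, replicates 1 to 4 have member levels of 8.52, 8.41, 8.76 and 8.23, the last being the lowest of the adults. Their granule markers are at 34300, 39570, 5553 and 762 CPM.

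Fetal and adult controls were compared as the flox control against untreated wild-type adults, which differ in stage, tissue, genotype and possibly batch, and these cannot be told apart. In the fetal control 3 members were lower and none higher, by edgeR's quasi-likelihood test (59% of all genes called, 29% as lower and 30% as higher). They were Dnajb9 (36.1, 20.1 and 21.4 CPM against 58.2, 46.5 and 36.0 CPM; log2 fold change -0.85 ± 0.26, edgeR adjusted p = 0.0273), Hspa5 (-0.33 ± 0.12, edgeR adjusted p = 0.0469) and Hyou1 (-0.32 ± 0.11, edgeR adjusted p = 0.0376). The count depended on single libraries. It was 0 without flox control replicate 4 or 5 or untreated replicate 2, 1 without untreated replicate 1 or 3, and 6 without flox control replicate 3. Of 13 cytosolic and mitochondrial chaperones tested, 12 were higher in the fetal control and none lower, with Hspa8, the constitutive cytosolic Hsp70, at 5086 ± 203 CPM against 2112 ± 225 CPM (SD, n = 3 each). Of the 11 sensors and factors, 6 were lower, among them Ern1 (log2 fold change -1.52), the ER-anchored factor Creb3l2 (-1.05) and Xbp1 (-0.81), and 1 was higher, Atf6b (0.32).

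All members but Dnajb9 varied together across libraries, which share scaling and depth. All r values below also include differences between groups, and in adults the dose differences for which the members were chosen. Over the 17 adult libraries, Pearson's r of a member's log2 CPM with the mean of the others ran from 0.74 for Hsp90b1 to 0.969 for Pdia4, and was 0.026 for Dnajb9. Over the 10 fetal libraries of batch A it ran from 0.938 for Hsp90b1 to 0.989 for Creld2, and was 0.512 for Dnajb9. Outside the members, the 5 protein-coding genes most like their mean pattern in adults, among 9185 genes, were P3h1 (r = 0.96), Slc35b1 (0.958), P4hb (0.948), Dnajc3 (0.948) and Tmed2 (0.946). In fetal batch A, among 9304 genes, they were Erp44 (0.99), Sqstm1 (0.985), Bcl10 (0.984), Capzb (0.983) and Anp32a (0.982). P4hb, Dnajc3, Tmed2 and Erp44 are also on the lists described above.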

How the data were processed

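RNA of 32 sorted progenitor libraries was sequenced as paired reads of 150 bases. Per the series' design text, the authors aligned reads with HISAT2 2.1.0 to GRCm38 and named DESeq2 and, for splicing, rMATS 4.1.0. The deposited values are raw counts per Ensembl gene. The counting tool, its annotation and its use of strand are not given in the sources used here. Symbols came from GENCODE M21, which held 27690 of the 27728 identifiers.

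Counts were scaled by TMM, filtered with filterByExpr by group and tested with edgeR 4.0.16 (quasi-likelihood, R 4.3.3), with Benjamini-Hochberg adjustment over all genes tested and a threshold of 0.05. One fit held the 9 batch A libraries of the flox control and both deletions, one all 17 adult libraries, and one the 6 libraries of the flox and adult controls. The SE is the log2 fold change divided by the square root of the F statistic. Dose contrasts and S34F are descriptions. The scripts were tested on simulated data, where fold sizes, signs and p-values of unchanged genes passed. A first criterion, on the share of changed genes called, was not met by fetal against adult controls and was replaced. Power was thus limited in that comparison. Alternatives were DESeq2 1.42.0, RLE factors, other filters on low counts, a replicate block, a hepatocyte covariate, the compared groups alone, removal of genes over 1% of counts, all 5 fetal control libraries and leaving out libraries. Leaving out the libraries with most hepatocyte or secondary granule signal was chosen after seeing the data.

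All 10 members were named. From each list, up to 3 genes with the largest rise and 3 with the largest fall were named among those called with a mean of at least 50 counts; other names (Ern1, Canx, Ero1b, Syvn1, Derl3) were added after their values were seen, for their function or promoter. One gene that this rule names is not reported here. The 5 genes most like the members' mean pattern were taken by Pearson's r among genes with a mean of at least 50 counts. The members and lists were chosen with earlier results of these data known.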

Additional observations from a re-analysis of the deposited data

Results flagged for a closer look

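Of 40 member and group combinations with 4 to 10 libraries, 2 had a library standing apart from the rest of its group, judged by the gap to its nearest neighbour relative to the range of the group. Chance gives about 1 such result in 20. Both were in S34F replicate 1, where Hsp90b1 was at 847.6 CPM, against 1039 to 1065 CPM in the other 3 libraries, and Sdf2l1 was at 120.4 CPM, against 137.5 to 138.7 CPM.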

How the results depend on the processing

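Comparing the homozygous deletion with flox controls, 8 members were called, and 8 under DESeq2, RLE factors, both filters on low counts, removal of dominant genes and the compared groups alone; 0 were called with the hepatocyte covariate and 3 without flox control replicates 4 and 5. Leaving out 1 library gave 7 to 9 calls there, 7 to 9 against the heterozygous deletion, 0 to 0 in the heterozygous deletion against the flox control and in dosed against untreated adults, and 0 to 6 in fetal against adult controls. Fetal against adult controls had 3 calls, 5 with all 5 fetal control libraries, 4 with DESeq2 and with no filter, and 2 with RLE factors. The median between 10000 and 1250 ppm was -0.72, and -0.754 to -0.632 when 1 library was left out. In dosed against untreated adults 315 of all genes were called, against 1141 with DESeq2 and 198 with no filter. In the heterozygous deletion 0.0316% of all genes were called, against 0.939% with DESeq2 and 1.02% with no filter.

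Reversed signs of log2 fold changes were all of values that were not called. Without flox control replicates 4 and 5, Pdia6 in the homozygous deletion was at -0.02 (-0.017), and Calr and Sdf2l1 in the heterozygous deletion were at -0.15 and -0.29. With the hepatocyte covariate, Calr and Sdf2l1 in the heterozygous deletion were at -0.06 (-0.055) and -0.09 (-0.093), and Dnajb9 in the homozygous against the heterozygous deletion at -0.15. With all 5 fetal control libraries, Calr against adults was at -0.05 (-0.047). In dosed against untreated adults, Pdia6 was at 0.003 with DESeq2 and with RLE factors, 0.01 with a mean of at least 50 counts and 0.08 (0.083) without 10000 ppm replicates 1 and 2, Pdia4 at 0.006 and 0.06 (0.058) under the last 2, and Hspa5 at -0.017 with the replicate block. The causes of these changes were not tested.

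Leaving out 1 library turned the sign of further values that were not called. In the heterozygous deletion against the flox control the ranges were -0.023 to 0.14 for Calr, -0.238 to 0.135 for Creld2, -0.344 to 0.128 for Dnajb9, -0.254 to 0.045 for Hspa5, -0.168 to 0.022 for Hyou1, -0.238 to 0.069 for Manf, -0.136 to 0.088 for Pdia4, -0.127 to 0.075 for Pdia6 and -0.106 to 0.229 for Sdf2l1. Dnajb9 between the homozygous deletion and flox controls ranged from -0.17 to 0.298. In dosed against untreated adults the ranges were -0.019 to 0.07 for Hspa5, -0.048 to 0.033 for Pdia4 and -0.058 to 0.049 for Pdia6, and in fetal against adult controls -0.09 to 0.075 for Calr, -0.156 to 0.204 for Creld2 and -0.141 to 0.064 for Pdia6.

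Same-numbered replicates shared only a number: correlations of their deviations ran from -0.161 to 0.2 over 15 pairs, with 4 over 0.1. With the replicate block, 8 members were called between the homozygous deletion and flox controls, 8 against the heterozygous deletion (Pdia6 at 0.23, edgeR adjusted p = 0.0504), 0 in the heterozygous deletion and 0 in dosed adults, and the dose median was -0.657. Fetal against adult controls share 1 replicate number, so the block could not be fitted.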
